A study of Homo sapiens with 11 samples.

Results

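The genes described here are 31 human genes of glycolysis and of glucose and lactate transport, chosen by name from the 25590 genes of the deposited tables: glucose and lactate carriers, the glycolytic enzymes, the PFKFB and PDK regulators, lactate dehydrogenase, pyruvate dehydrogenase and 3 genes of glycogen metabolism. They were followed in 11 subcutaneous tumours of PC-3, a human prostate carcinoma cell line, grown in male athymic nude mice (Crl:NU-Foxn1nu, 8 weeks old at the start). From day 7 to day 31, the mice that bore 6 of the tumours received A2M*, the transformed, receptor-binding form of the proteinase inhibitor alpha2-macroglobulin (5.6 mg per 20 g body weight), and those of the other 5 tumours received PBS as control. All 11 tumours came from the same cell line, and athymic mice lack mature T cells. Each tumour gave 1 library, tumours are named by their labels, PC3_tumor_123 to PC3_tumor_127 for PBS and PC3_tumor_128 to PC3_tumor_132 and PC3_tumor_112 for A2M*, and only reads assigned to the human genome were counted. The p-values therefore measure only the spread between these tumours, as the labels do not say which animals bore them. Where all 5 values of the PBS tumours are given, they follow the order of these labels.

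In glycolysis, cells take up glucose through carriers of the SLC2A family, trap it by phosphorylation and convert it to pyruvate with a gain of ATP. Pyruvate is either reduced to lactate and exported through carriers of the SLC16A family or oxidised in mitochondria by pyruvate dehydrogenase, which the PDK kinases inhibit. Many of these genes are known targets of HIF-1, the oxygen-regulated transcription factor, and tumours are known for high glycolysis even where oxygen is present.

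Between 16958533 and 35874381 human reads per tumour were counted on genes, so that 3 counts, the least taken as shown, equalled 0.0836 to 0.177 RPM (reads per 1e+06 reads; this limit covers counting error only). The libraries carried the epithelial markers of the labelled cell line, with KRT8 at 205.0 to 280.05 RPKM (RPM per kilobase of exon) and EPCAM at 130.8 to 192.3 RPKM, while KLK3, the gene of prostate-specific antigen, was at 0 counts in every tumour, which allows up to 0.177 RPM. None of the 31 genes was rare: the lowest count of any of them in any tumour was 106, for SLC2A3.

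GAPDH was the most abundant of the 31 genes, and the enzymes of the second phase of glycolysis made up most of the top of the order. By mean RPKM, which is scaled by length, GAPDH (1821 RPKM) was followed by PKM (618), ENO1 (613), PGK1 (555) and TPI1 (462). The part of the reads not assigned to the human genome can differ by gene, which scaling by length does not correct. The lowest tumour for GAPDH (1436 RPKM) lay above the highest for PKM (687), whereas the ranges of PKM, ENO1, PGK1 and TPI1 overlapped. In all, 10 of the 31 genes had a mean above 100 RPKM, and 5 were below 10 RPKM, namely PDK1, PDK2, PFKFB2, PDK3 and SLC2A3 (2.13 RPKM, the lowest). Together the 31 genes took 1.45% to 1.76% of all counts in the PBS tumours and 1.17% to 1.55% in the A2M* tumours.

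**Figure D1:**
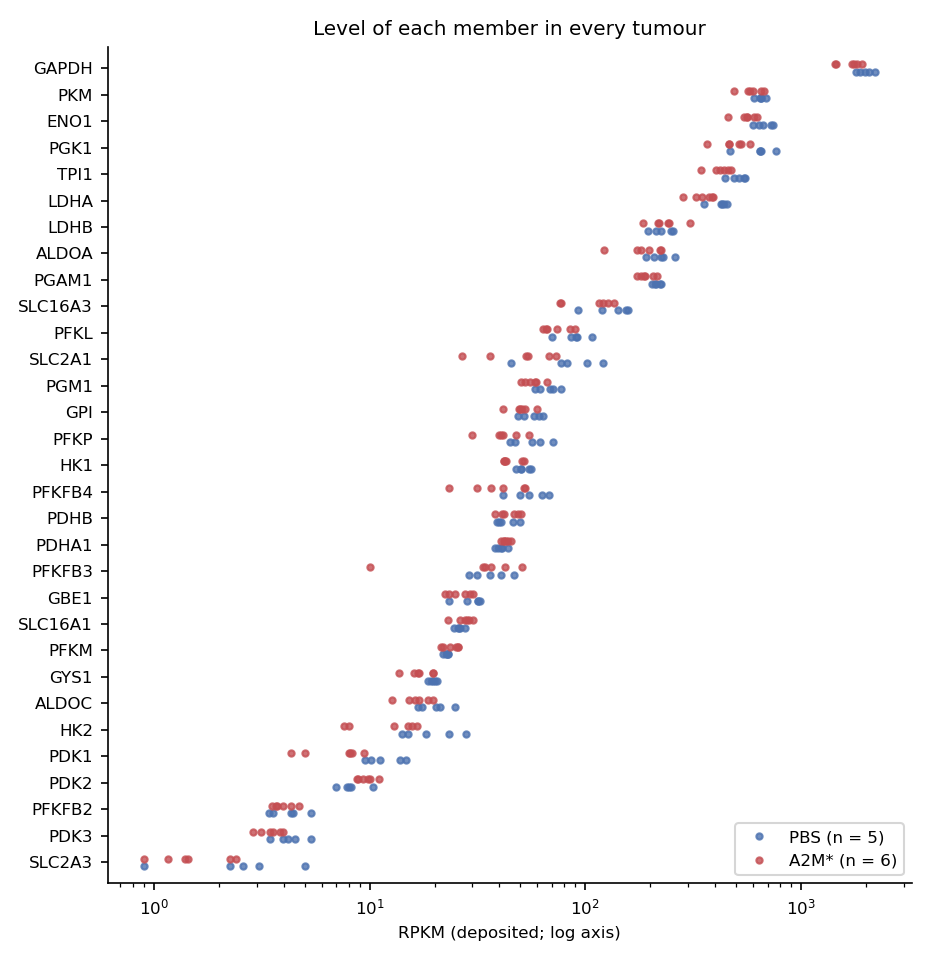
RPKM of the 31 genes in every tumour on a log axis, ordered by mean, with 5 PBS tumours in blue and 6 A2M* tumours in red, 1 point per tumour. The order runs from GAPDH at a mean of 1821 RPKM to SLC2A3 at 2.13 RPKM, and for PDK1 the red points all lie below the blue ones.

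Within most of the gene families 1 paralogue dominated the RPKM. SLC2A1 made up 97.0% of the summed RPKM of SLC2A1 and SLC2A3 on average over the 11 tumours, ALDOA 91.7% of the aldolases and SLC16A3 80.9% of the lactate carriers. HK1 held 75.9% of the hexokinases, LDHA 62.1% of the lactate dehydrogenases and PFKFB4 54.2% of the PFKFB enzymes, with PFKFB2 at 5.06%. PFKL (52.8%), PFKP (31.6%) and PFKM (15.7%) shared the phosphofructokinases. Of the PDK kinases, PDK1 ranged from 26.2% to 54.5% and PDK2 from 27.7% to 56.3% over the tumours, and PDK3 held 17.3% on average.

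The stretches before the transcription start of 4 of these genes are shown because the genes are described below against other oxygen-regulated genes, and the core of the known HIF binding site is ACGTG or GCGTG. Each is the 250 bases before the start in RefSeq (table of build GRCh38.p14), 5′ to 3′ on the strand of the gene, with ACGTG or GCGTG on either strand in capitals. A match on the other strand reads CACGT or CACGC, and in CACGTG, which is its own reverse complement, the matches of both strands overlap. The positions, from an exact match to GRCh37, are chrX:77359495-77359744 for PGK1 (plus strand), chr11:18415860-18416109 for LDHA (plus strand), chr2:75061004-75061253 for HK2 (plus strand) and chr1:43424540-43424789 for SLC2A1 (minus strand).
PGK1: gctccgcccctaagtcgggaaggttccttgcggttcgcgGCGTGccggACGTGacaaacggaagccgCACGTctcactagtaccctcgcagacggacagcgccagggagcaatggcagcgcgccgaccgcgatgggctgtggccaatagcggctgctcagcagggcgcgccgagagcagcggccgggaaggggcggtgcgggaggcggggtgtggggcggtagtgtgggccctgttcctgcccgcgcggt
LDHA: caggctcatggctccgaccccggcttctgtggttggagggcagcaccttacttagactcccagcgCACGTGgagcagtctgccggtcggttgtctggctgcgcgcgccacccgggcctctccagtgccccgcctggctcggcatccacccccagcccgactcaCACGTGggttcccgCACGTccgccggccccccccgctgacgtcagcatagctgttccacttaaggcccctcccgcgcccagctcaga
HK2: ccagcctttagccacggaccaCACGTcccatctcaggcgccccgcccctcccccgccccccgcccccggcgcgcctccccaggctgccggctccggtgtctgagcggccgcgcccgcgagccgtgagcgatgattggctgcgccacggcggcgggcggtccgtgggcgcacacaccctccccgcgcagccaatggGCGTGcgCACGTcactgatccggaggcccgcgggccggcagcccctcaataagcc
SLC2A1: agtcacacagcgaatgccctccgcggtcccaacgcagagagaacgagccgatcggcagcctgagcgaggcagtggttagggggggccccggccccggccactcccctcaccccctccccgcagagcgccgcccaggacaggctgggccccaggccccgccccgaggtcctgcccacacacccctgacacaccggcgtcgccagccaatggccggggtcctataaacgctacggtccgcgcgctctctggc

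LDHA held 5 matches of ACGTG, 4 of them as the overlapping matches of 2 CACGTG sites. PGK1 and HK2 each held 2 ACGTG and 1 GCGTG, and SLC2A1 held neither in this window. Of the 28 of 31 genes with an entry in the table, 10 (35.7%) held ACGTG, against 18.7% of all 27305 promoters. GCGTG was in 12 of the 28 (42.9%), against 31.9% of all promoters, and either of them in 16 (57.1%), against 43.1%. A match is a description of the letters only.

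The question of the treatment comparison was whether the 31 genes differed between the tumours of A2M*-treated and PBS-treated mice. The fitted level of most of the genes was lower in the A2M* tumours, and none of them passed the threshold across all genes. Of the 31 genes, all of which were tested, 25 had a negative log2 fold change (A2M* over PBS), and 6 had a positive one, of at most 0.17: PFKM, LDHB, SLC16A1, PDK2, PDHA1 and PDHB. The median over the 31 genes was -0.29, beside -0.0021 over all 16630 genes tested, of which 50.6% were negative. At an adjusted p under 0.01 there were 0 of the 31 genes in edgeR's quasi-likelihood test with Benjamini-Hochberg adjustment (background 0% of all genes), and the smallest adjusted p in this test was 0.599. DESeq2 also called 0 of the 31 (background 0.00601%, 1 gene of all 16630). At an unadjusted p under 0.05, 18 of the 31 genes were lower (background 3.53% of all genes) and 0 were higher (background 3.55%).

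The tumours differed among themselves within each group. Of the 25 genes with a negative fold change, PC3_tumor_125 was the highest of all 11 tumours for 17, and PC3_tumor_131 the lowest for 14. PC3_tumor_123 ranked in the middle, with a median rank of 5.0 among the 11 tumours over these genes, below that of PC3_tumor_129 (8.0). For 21 of the 31 genes every A2M* tumour lay below the PBS median (background 7.35% of all genes). Every A2M* tumour lay below every PBS tumour for 1 gene, PDK1 (background 0.325% of all genes). In bulk RNA, fewer cells that express a gene and less RNA per cell cannot be told apart.

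**Figure D2:**
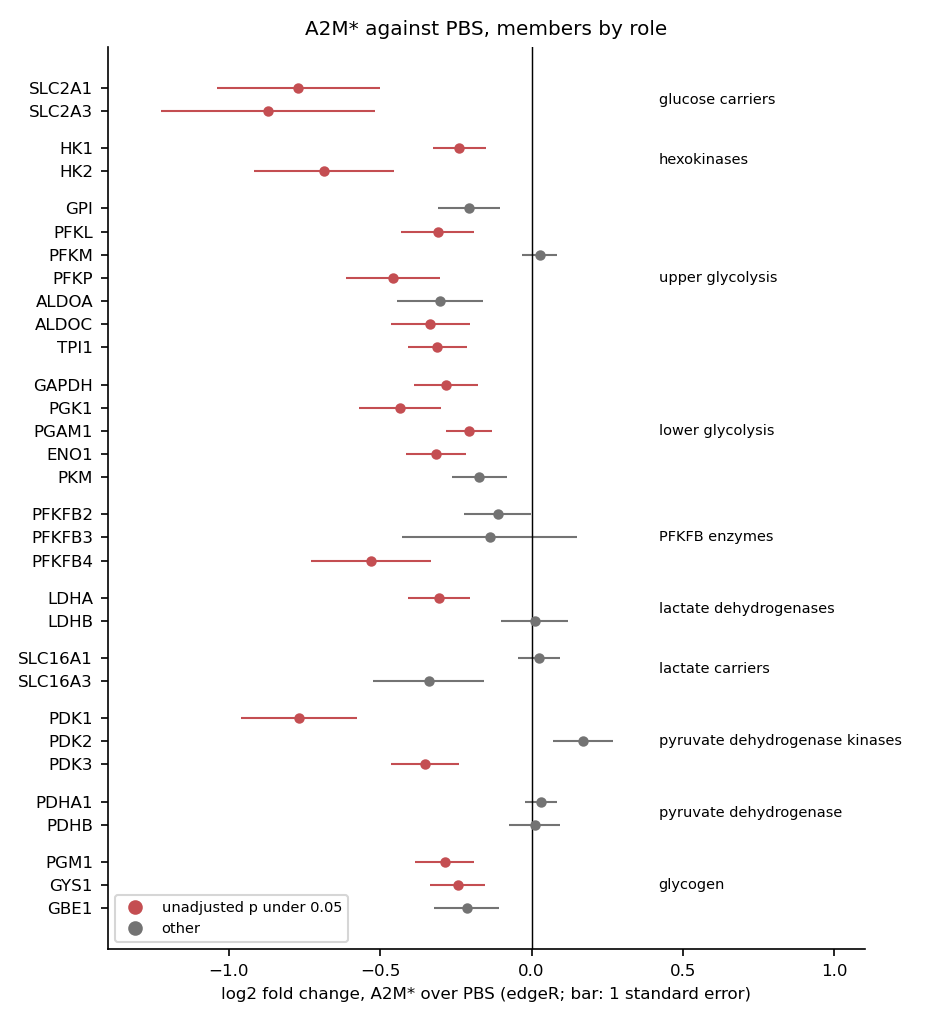
Log2 fold change (A2M* over PBS, 6 against 5 tumours) of the 31 genes by role, with bars of 1 standard error, in red where the unadjusted p of edgeR's quasi-likelihood test was under 0.05. The 18 red genes all lie below 0, and no gene of the 31 reached an adjusted p under 0.01.

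Both glucose carriers had lower means in the A2M* tumours, with the widest spread of any role. SLC2A1 encodes GLUT1, the carrier for basal glucose uptake (chromosome 1 of GRCh37, 43391024 to 43424564, minus strand). Its level in the 5 PBS tumours was 165, 391, 458, 282 and 306 CPM (counts per 1e+06 counts after TMM scaling), and in the A2M* tumours it ran from 95.4 over a median of 195 to 270 CPM. The groups overlapped, since PC3_tumor_123 lay below the A2M* median. Its log2 fold change was -0.77 ± 0.269 (SE, unadjusted p = 0.0127). SLC2A3, which encodes the high-affinity carrier GLUT3 (chromosome 12, 8071826 to 8171603, minus strand), was at 3.51, 10.6, 20.6, 11.99 and 9.04 CPM in the PBS tumours and at 3.53, 5.54 and 9.44 CPM as lowest, median and highest A2M* tumour. The lowest of all 11 tumours was PC3_tumor_123 and the highest PC3_tumor_125, so that the groups overlapped fully at the low end. SLC2A3 had a log2 fold change of -0.87 ± 0.354 (SE, unadjusted p = 0.0278), which was -0.52 without PC3_tumor_125. SLC2A14, a close copy of SLC2A3 at 0.928 to 6.10 RPM, can share its reads, so the split between them is uncertain.

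The hexokinases phosphorylate glucose in the first step. HK2, the inducible form found in many tumours (chromosome 2, 75061254 to 75120486, plus strand), was at 98.9, 135, 206, 164 and 109 CPM in the PBS tumours, and the A2M* tumours ran from 53.8 over a median of 98.6 to 115 CPM. PC3_tumor_128 and PC3_tumor_131 were the lowest, at about the same level, and the groups overlapped from 98.9 to 115 CPM. Its log2 fold change was -0.69 ± 0.231 (SE, unadjusted p = 0.0104). HK1, the widely expressed form, had a smaller log2 fold change of -0.24.

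In the phase of glycolysis from glucose 6-phosphate to the triose phosphates, 4 of 7 genes were lower at an unadjusted p under 0.05 (background 3.53%). These were TPI1, PFKL (-0.31), PFKP (-0.46) and ALDOC (-0.33, all log2 fold changes). ALDOA, the main aldolase here, had -0.30 (unadjusted p = 0.0517), GPI, the isomerase of glucose 6-phosphate, -0.21 (unadjusted p = 0.0621), and PFKM, the muscle-type phosphofructokinase, 0.026. TPI1, the isomerase of the triose phosphates (chromosome 12, 6976283 to 6980112, plus strand), was at 818, 1055, 1060, 901 and 975 CPM in the PBS tumours. Its A2M* tumours ran from 617 over a median of 789 to 880 CPM. PC3_tumor_123 was the only PBS tumour inside the A2M* range, and 4 of the 6 A2M* tumours lay below it. This was a log2 fold change of -0.31 ± 0.0971 (SE, unadjusted p = 0.0065). Its exons overlap those of SPSB2 on the other strand, the strand setting of the counting is not given in the sources used here, and the copy TPI1P3 was at 8.80 to 14.8 RPM.

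In the phase that yields ATP, 4 of 5 genes were lower at an unadjusted p under 0.05 (background 3.53% of all genes). All 5 were negative (background 50.6%). PGK1, the kinase of the first ATP-yielding step (chromosome X, 77166236 to 77384792, plus strand), was at 1121, 1642, 1935, 1578 and 1586 CPM in the PBS tumours, and at 859, 1174 and 1413 CPM as lowest, median and highest A2M* tumour. All PBS tumours except PC3_tumor_123 lay above the highest A2M* tumour. Its log2 fold change was -0.43 ± 0.137 (SE, unadjusted p = 0.0069), and exons annotated to PGK1 overlap those of ATP7A on the same strand.

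ENO1, the main enolase (chromosome 1, 8921059 to 8939249, minus strand), was at 1936, 2526, 2462, 2060 and 2221 CPM in the PBS tumours. Its A2M* tumours ran from 1455 over a median of 1787 to 2035 CPM. Of the PBS tumours, only PC3_tumor_123 fell within the A2M* range. The log2 fold change was -0.32 ± 0.0997 (SE, unadjusted p = 0.0070). GAPDH, the dehydrogenase of glyceraldehyde 3-phosphate (chromosome 12, 6643678 to 6647540, plus strand), was at 3366, 4375, 4055, 3534 and 3809 CPM in the PBS tumours, and its A2M* tumours ran from 2651 over a median of 3242 to 3643 CPM. The lowest A2M* tumours, PC3_tumor_131 and PC3_tumor_132, were close to each other, and the A2M* range reached into that of the PBS tumours. GAPDH, often used as a reference gene, had a log2 fold change of -0.28 ± 0.105 (SE, unadjusted p = 0.0179).

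PKM, the pyruvate kinase of the last step (chromosome 15, 72491370 to 72524160, minus strand), was at 2054, 2284, 2151, 2044 and 1968 CPM in the PBS tumours. In the A2M* tumours it ran from 1512 in PC3_tumor_132 over a median of 1824 to 2159 CPM in PC3_tumor_112. The PBS tumours lay close together and within reach of the higher A2M* tumours. Its log2 fold change of -0.17 ± 0.0915 (SE, unadjusted p = 0.0808) did not pass. PGAM1, the mutase between PGK1 and the enolase, had a log2 fold change of -0.21, and reads can be split between it and its close copy PGAM4, which was at 70.2 to 90.6 RPM and had a log2 fold change of -0.22.

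**Figure D3:**
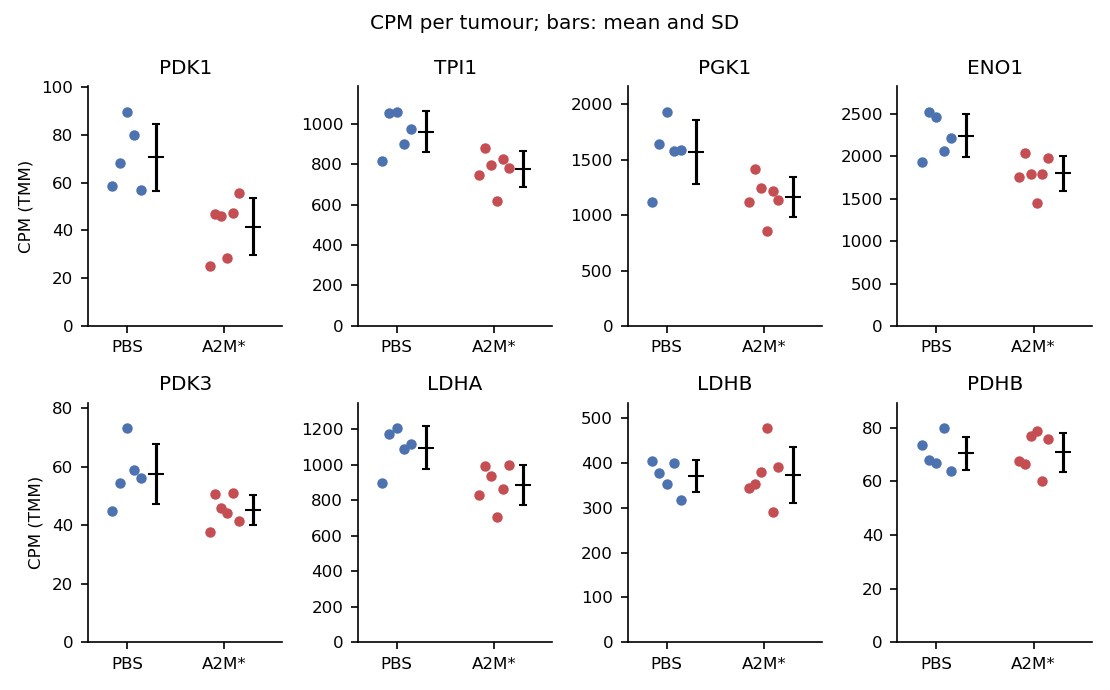
CPM per tumour (TMM-scaled, axes from 0) of the 6 genes with the smallest p and of LDHB and PDHB, with 5 PBS tumours in blue, 6 A2M* tumours in red and bars for mean and SD. PDK1 has no overlap between the groups, with PBS tumours at 56.7 CPM or more and A2M* tumours at 55.5 CPM or less, whereas LDHB and PDHB overlap throughout.

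The PFKFB enzymes make and break fructose 2,6-bisphosphate, an activator of phosphofructokinase. PFKFB4 (chromosome 3, 48555117 to 48599448, minus strand) was at 144, 230, 247, 172 and 195 CPM in the PBS tumours and ran from 78.7 over a median of 135 to 184 CPM in the A2M* tumours. PC3_tumor_131 was the lowest, and the groups overlapped from 144 to 184 CPM. Its log2 fold change was -0.53 ± 0.198 (SE, unadjusted p = 0.0183), and its exons overlap those of UCN2 on the same strand. PFKFB3, the form with the highest kinase activity (chromosome 10, 6186897 to 6296607, plus strand), was at 151, 238, 206, 175 and 143 CPM in the PBS tumours, and at 48.5, 168 and 248 CPM as lowest, median and highest A2M* tumour. The highest and the lowest of all 11 tumours were both A2M* tumours, PC3_tumor_112 and PC3_tumor_128. PFKFB3 had a log2 fold change of -0.14 ± 0.289 (SE), which was 0.054 without PC3_tumor_128, and PFKFB2 had -0.11 ± 0.110 (SE).

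Of the 4 lactate genes, 1 was lower at an unadjusted p under 0.05 (background 3.53% of all genes), LDHA. LDHA, the subunit that favours lactate formation (chromosome 11, 18416107 to 18429972, plus strand), was at 896, 1173, 1204, 1088 and 1113 CPM in the PBS tumours and ran from 705 over a median of 898 to 998 CPM in the A2M* tumours. All PBS tumours except PC3_tumor_123 lay above the highest A2M* tumour. The log2 fold change was -0.31 ± 0.102 (SE, unadjusted p = 0.0099). SLC16A3, the lactate exporter MCT4, had a log2 fold change of -0.34 ± 0.184 (SE, unadjusted p = 0.0861). LDHB, the subunit that favours lactate oxidation, had 0.010 ± 0.110 (SE), and SLC16A1, the lactate carrier MCT1, had 0.025 ± 0.0688 (SE), with overlapping groups for both.

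The PDK kinases hold pyruvate dehydrogenase inactive, and 2 of the 3 were lower at an unadjusted p under 0.05 (background 3.53% of all genes). PDK1 (chromosome 2, 173420101 to 173473397, plus strand) was at 58.8, 68.0, 89.7, 79.9 and 56.7 CPM in the PBS tumours and ran from 25.2 over a median of 46.4 to 55.5 CPM in the A2M* tumours. The groups did not overlap, although the highest A2M* tumour, PC3_tumor_112, came close to PC3_tumor_127. The log2 fold change was -0.77 ± 0.192 (SE, unadjusted p = 0.0014), the smallest p of the 31 genes, with an adjusted p of 0.599 in edgeR's quasi-likelihood test, and its exons overlap those of PDK1-AS1 on the other strand.

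PDK3 (chromosome X, 24483361 to 24568583, plus strand) was at 44.8, 54.5, 73.2, 59.0 and 56.2 CPM in the PBS tumours and at 37.7, 45.0 and 50.9 CPM as lowest, median and highest A2M* tumour. PC3_tumor_123 alone fell within the A2M* range. The log2 fold change was -0.35 ± 0.114 (SE, unadjusted p = 0.0080). PDK2 went the other way at 0.17 ± 0.0998 (SE, unadjusted p = 0.111), and no A2M* tumour lay below the PBS median. The pyruvate dehydrogenase subunits themselves had log2 fold changes of 0.032 (PDHA1, standard error 0.0519) and 0.0098 (PDHB, standard error 0.0828).

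Of the genes of glycogen metabolism, PGM1, which interconverts glucose 1-phosphate and glucose 6-phosphate, had a log2 fold change of -0.29 (unadjusted p = 0.0114). GYS1, the muscle-type glycogen synthase, had -0.24 (unadjusted p = 0.0182), and GBE1, the glycogen branching enzyme, had -0.21 (unadjusted p = 0.0664). For all 3 genes every A2M* tumour lay below the PBS median (7.35% of all genes did so).

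Genes of neighbouring pathways were taken from lists. At an unadjusted p under 0.05, the background was 3.53% of all genes lower and 3.55% higher. Of 27 tested genes of other glycolysis and glucose handling, 4 were lower and 0 higher at an unadjusted p under 0.05, with a median log2 fold change of -0.041. They were HKDC1 (-0.55, at a mean of 1.25 CPM in the PBS tumours), PGAM4, the neuronal enolase ENO2 (-0.70) and SLC2A14 (-0.96). Of 20 glycogen genes, 3 were lower and 0 higher: GYG2 (-0.57), the liver glycogen phosphorylase PYGL (-0.37) and PPP1R3B (-0.32). In the lists of mitochondrial pyruvate handling (9 tested) and of the pentose phosphate pathway (8 tested), 0 genes were lower or higher, and the genes with the smallest p were PDK4 (-0.37), MPC1 (0.11) and PDHX (-0.098) in the first and RPIA (0.16), TALDO1 (-0.092) and H6PD (-0.091) in the second.

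The ratio of paralogues within a tumour asks whether the make-up of a family differed between the groups, and 8 ratios of RPKM were compared. PDK1 over the sum of PDK2 and PDK3 was the one with the smallest p. Its log2 ratio was -0.17, -0.12, 0.17, 0.26 and -0.61 in the PBS tumours, and -1.49, -0.77, -0.61, -1.42, -0.86 and -0.33 in the A2M* tumours in the order of their labels above. PC3_tumor_127 lay within the A2M* range and the other PBS tumours above it. The PDK1 share of the 3 kinases was 48.4% ± 5.87 (SD, n = 5) in the PBS and 35.0% ± 7.05 (SD, n = 6) in the A2M* tumours, a difference in log2 ratio of -0.82 (exact permutation of the group labels, two-sided, 462 labelings, p = 0.0108, 0.0866 after Benjamini-Hochberg adjustment over the 8 ratios).

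The other 7 ratios had a p of at least 0.110 in the same exact permutation test, whose smallest possible p is 0.00216. The A2M* minus PBS difference in log2 ratio was 0.46 for HK1 over HK2 (exact p = 0.110), -0.31 for LDHA over LDHB (exact p = 0.143), 0.37 for SLC16A1 over SLC16A3 (exact p = 0.195) and 0.29 for PFKFB2 over PFKFB3 and PFKFB4 (exact p = 0.331). The last was 0.14 without PC3_tumor_128 and 0.17 without PC3_tumor_124, and the difference for LDHA over LDHB was -0.17 without PC3_tumor_131. The difference was -0.045 for SLC2A1 over SLC2A3 (exact p = 0.829), -0.011 for PFKL over PFKM and PFKP (exact p = 0.916) and 0.0045 for ALDOA over ALDOC (exact p = 0.939). LDHA made up 64.8% ± 4.33 (SD, n = 5) of the lactate dehydrogenase RPKM in the PBS and 59.8% ± 6.07 (SD, n = 6) in the A2M* tumours. Without PC3_tumor_123, the PBS tumour with the lowest LDHA over LDHB ratio, the difference in log2 ratio was -0.41.

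**Figure D4:**
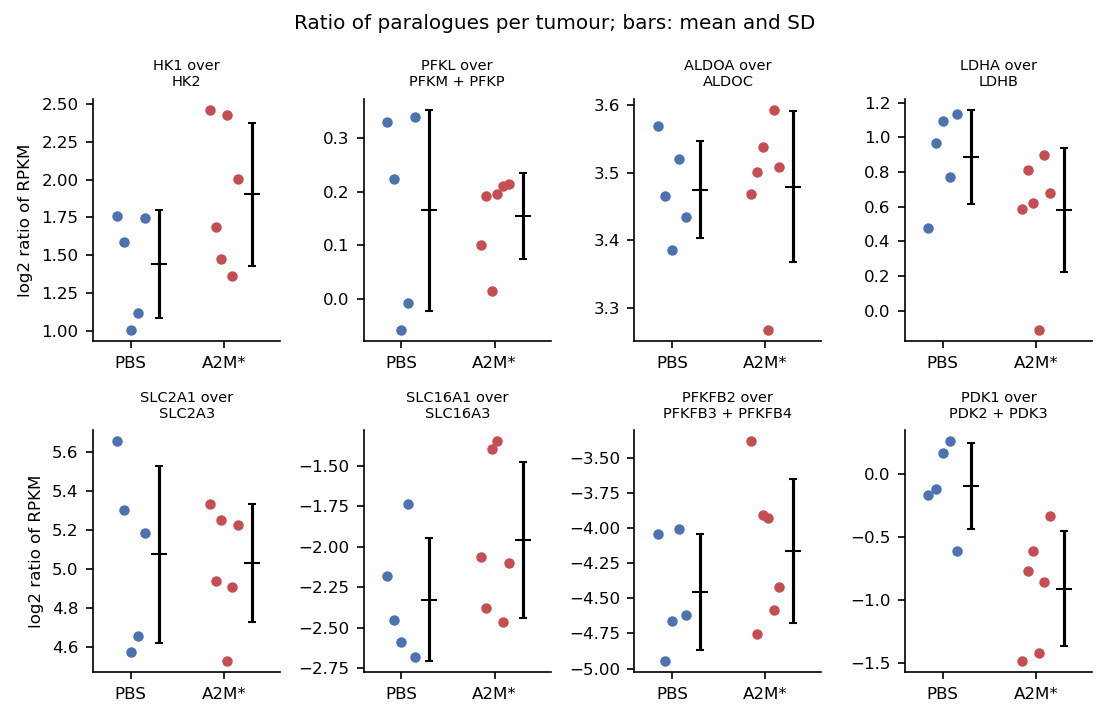
Log2 ratio of the RPKM of paralogues in every tumour for the 8 families, with 5 PBS tumours in blue, 6 A2M* tumours in red and bars for mean and SD (vertical axes differ and do not start at 0). PDK1 over PDK2 and PDK3 has the smallest p of the 8 (exact permutation test, p = 0.0108), and its groups overlap at PC3_tumor_127.

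To ask which of the 31 genes went up and down with oxygen-regulated genes of other functions, a hypoxia target level was computed for each tumour as the mean z-score of 26 known hypoxia targets that are no glycolytic genes, such as ANGPTL4, BNIP3 and HILPDA. This level was -0.71, 1.02, 1.26, 0.47 and 0.42 in the PBS tumours and ran from -1.35 in PC3_tumor_131 over a median of -0.27 to 0.31 in PC3_tumor_129 among the A2M* tumours. The groups overlapped, with a difference of -0.90 (two-sided exact permutation test, p = 0.0714). All 26 targets had a negative log2 fold change (background 50.6% of all genes), with -1.31 for ANGPTL4, -0.58 for BNIP3 and -0.80 for HILPDA. Of the 26, 14 were lower at an unadjusted p under 0.05 (background 3.53% of all genes). The list was chosen with earlier results of these data known, which limits what the shared direction and the exact permutation test can show. Of the genes of the HIF machinery, 7 were tested and 0 were lower or higher (background 3.53% and 3.55% of all genes). The log2 fold changes were 0.13 for HIF1A, -0.11 for EPAS1 and -0.17 for HIF3A.

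With the treatment group as a term in the fit, 4 of the 31 genes rose with the hypoxia target level at an adjusted p under 0.05 in edgeR's quasi-likelihood test (background 0.168% of all genes), and 0 fell. SLC2A1 had the smallest adjusted p of all 16630 genes (1.26e-05), at a slope of 0.65 ± 0.0399 on the log2 scale per SD of the level (SE). PFKFB4 had a slope of 0.43 ± 0.0558 (SE, adjusted p = 0.0076), SLC2A3 of 0.78 ± 0.115 (SE, adjusted p = 0.0175) and PGK1 of 0.28 ± 0.0478 (SE, adjusted p = 0.0401, edgeR). Without PC3_tumor_123, PC3_tumor_125 or PC3_tumor_129 the count was 2, SLC2A1 and PFKFB4. With each of the 11 tumours left out in turn, SLC2A1 and PFKFB4 passed in all 11 fits, SLC2A3 in 8 and PGK1 in 3. Of the 28 genes that rose in the whole table, 10 were targets used in the level itself.

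HK2 had a slope of 0.47 ± 0.0840 (SE) that did not pass (edgeR adjusted p = 0.0522) but did in 2 of the 11 fits with a tumour left out, and PFKFB3 had 0.33 with a wide standard error of 0.167 (adjusted p = 0.735). At an unadjusted p under 0.05, 18 of the 31 genes had a positive slope (background 4.25% of all genes). PKM had a slope of 0.044 ± 0.0577 (SE) and GAPDH of 0.12 ± 0.0601 (SE), the smallest slopes among the 5 most abundant genes. The slope was negative for 5 genes, LDHB (-0.13), PDHB, SLC16A1, PDHA1 and PFKFB2, and none of these passed.

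**Figure D5:**
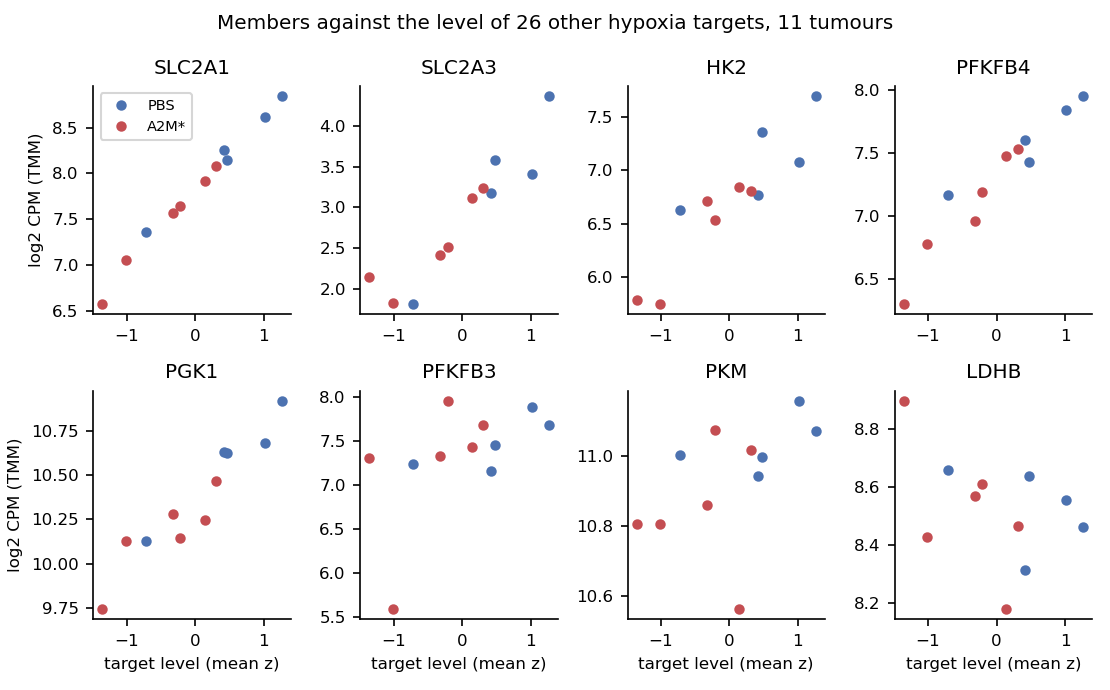
Log2 CPM of 8 of the genes against the hypoxia target level (mean z-score of 26 other targets), 1 point per tumour, with 5 PBS tumours in blue and 6 A2M* tumours in red. SLC2A1 and PFKFB4 follow the level closely (slopes of 0.65 and 0.43 per SD), PFKFB3 has PC3_tumor_128 far below the others, and PKM (slope 0.044) and LDHB (slope -0.13) do not rise with it at an adjusted p under 0.05.

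The same fit gives the treatment difference at an equal hypoxia target level. The median log2 fold change of the 31 genes was -0.11 with the level as a term, against -0.29 without it. At an unadjusted p under 0.05, 1 of the 31 genes was lower (background 1.11% of all genes), PDK1. Its log2 fold change was -0.43 ± 0.167 (SE, unadjusted p = 0.0233, adjusted p = 0.9996 in edgeR's quasi-likelihood test), so that it did not pass across all genes. SLC2A1 went from -0.77 to -0.058 and SLC2A3 from -0.87 to 0.11. As the level itself differed in mean between the groups, treatment and level are partly confounded in this fit.

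The genes also varied together within the groups. After removal of the group means, the Spearman correlation averaged 0.302 over the 465 pairs of the 31 genes across the 11 tumours. Over all pairs of tested genes it averaged 8.16e-05. All pairs share the same 11 libraries and their scaling, and the counts of genes given above are not counts of independent results. SLC2A1 had the highest mean correlation with the other 30 genes (0.527), and its nearest gene was PFKFB4 (0.982). LDHB, PDHB, SLC16A1, PDHA1 and PFKFB2 had negative means, and the nearest gene of LDHB was PDHB (0.882).

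Genes known as markers of other cells were measured beside these results. Only reads assigned to the human genome were counted, so the sums below do not measure the amount of mouse cells. The summed level of 22 markers of stroma and blood, most of it COL1A1, was 377 to 724 RPM in the PBS and 375 to 983 RPM in the A2M* tumours. Without COL1A1 it was 69.1 to 101 RPM in the PBS and 63.4 to 111 RPM in the A2M* tumours. Of the 15 tested, 1 was lower and 2 were higher at an unadjusted p under 0.05 (background 3.53% and 3.55% of all genes). These were VWF (-0.42), RGS5 (0.33) and COL1A2 (0.73, all log2 fold changes). All 3 were low, at 11 to 33 counts per tumour for VWF, 85 to 171 for RGS5 and 38 to 170 for COL1A2. The other 7 were too low to test, with at most 1 count in any tumour for HBA1 and HBA2, 3 for DCN, 5 for LUM, 7 for ALAS2, 17 for CDH5 and 18 for HBB. The summed level of 8 markers of skeletal muscle was 20.7 to 33.4 RPM in the PBS and 16.0 to 27.7 RPM in the A2M* tumours, with MB lower (-0.50), ACTA1 at -0.11, DES at 0.17 and the other 5 too low to test, at no more than 3 counts for MYH1 and MYH4, 4 for CKM, 5 for TNNT3 and 26 for MYH2. Of 7 tested markers of PC-3 epithelial identity, 0 were lower or higher, with CDH1 at -0.18 and KRT8 at -0.14. The part of these cells in the differences of the 31 genes was not tested.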

How the data were processed

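RNA of 11 PC-3 tumours was sequenced from TruSeq libraries. The authors sorted reads by species with xenome, mapped human reads to hg19 with TopHat2 and deposited raw counts per RefSeq gene from featureCounts. The authors divided counts by each tumour's total for the deposited RPM (checked, largest difference 4.99e-07). The authors further divided by exon length for the deposited RPKM. The strand setting is not given in the sources used here.

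The 31 genes and all lists were chosen with earlier results of these data known. In R 4.3.3, counts were filtered with filterByExpr (16630 genes kept), scaled by TMM (factors 0.958 to 1.03) and tested with edgeR 4.0.16 (quasi-likelihood, Benjamini-Hochberg over all genes, thresholds of 0.01 for treatment and 0.05 for slopes). Steps were tested on simulated data. The hypoxia target level is the mean z-score of log2 CPM (prior count 2). Alternatives used DESeq2 1.42.0, limma 3.58.1, other scalings and filters, and each tumour left out. Values per tumour were given for the 6 genes with the smallest p, the 5 with the steepest slope and the 5 with the highest RPKM, and in each other list the 3 genes with the smallest p were named (the values of 1 of them are not reported here); LDHB and PDHB in the plot of CPM per tumour, SLC2A14 and COL1A1 were chosen after their values were seen. Gene positions and exon overlaps are from GENCODE on GRCh37, whereas the counting used RefSeq genes, so the overlaps in the counting can differ. Figures used matplotlib 3.10.9.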

Additional observations from a re-analysis of the deposited data

Results flagged for a closer look

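The log2 ratio of LDHA to LDHB in the A2M* tumour PC3_tumor_131 was -0.11, while the other A2M* tumours lay between 0.59 and 0.90, a gap larger than expected from the range of the group. PC3_tumor_131 had both the lowest LDHA (705 CPM) and the highest LDHB (477 CPM) of all 11 tumours. In all, 82 groups of values were searched, of which chance gives 4.1, and 1 stood out.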

How the results depend on the processing

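The count of genes lower at an unadjusted p under 0.05 (18 of 31) was 17 to 19 under the 7 alternatives with all tumours and 15 to 22 with each tumour left out, and 0 of the 31 passed an adjusted p under 0.01 or 0.05 in any of them, with the smallest adjusted p in DESeq2 (0.0637). The 558 log2 fold changes under alternatives kept their direction in 547, and the 11 that turned came from leaving out a tumour: LDHB ran from -0.071 to 0.073, PDHB from -0.023 to 0.058 and PFKFB3 from -0.29 to 0.054. The count of 4 genes that rose with the hypoxia target level was 13 with no group term, where the treatment difference enters the slope. With each tumour left out it was 2 to 4. PGK1 lost its call with library size only (edgeR adjusted p = 0.0606) and without each of PC3_tumor_123 to PC3_tumor_127 and PC3_tumor_129 to PC3_tumor_131 (0.0513 to 0.555). HK2 gained one with no filter (0.0402), with the median of z-scores (0.0309), with no group term (0.00202) and without PC3_tumor_124 (0.0436) or PC3_tumor_126 (0.0378). The log2 fold change of SLC2A3 was -0.65 and -0.47 in limma on RPKM with a pseudocount of 0.1 and 1. With each tumour left out, the difference in log2 ratio ran from -0.066 to 0.033 for PFKL over PFKM and PFKP, from -0.018 to 0.047 for the aldolases, from -0.17 to 0.099 for the glucose carriers, from -0.41 to -0.17 for the lactate dehydrogenases, from 0.35 to 0.57 for the hexokinases, from 0.25 to 0.52 for the lactate carriers, from 0.14 to 0.41 for the PFKFB enzymes and from -0.95 to -0.70 for the PDK kinases (exact permutation p from 0.0079 to 0.0333). For each of these the cause was not tested. No paired analysis was possible because the groups share no tumour numbers. At these depths the 31 genes had at least 106 counts in every tumour, so the spread between tumours (a biological coefficient of variation of 13.9% over all genes), and not counting, limits the precision.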
